A study of Homo sapiens with 9 samples.

Results

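Mitochondrial DNA encodes 13 protein-coding mRNAs, and 6 of them specify subunits of respiratory complexes III, IV and V. MT-CO1, MT-CO2 and MT-CO3 encode the catalytic core of cytochrome c oxidase (complex IV). MT-CYB encodes cytochrome b of complex III, and MT-ATP6 and MT-ATP8 encode membrane subunits of ATP synthase (complex V). These 6 mRNAs were taken by gene name from the lists of all 9 libraries, as 6 of the 4237 genes listed for every library. All 6 were among the 4236 genes with a mean FPKM of at least 1 that were tested. The shortest list, that of rimonabant replicate 1, holds 4237 genes, so this library alone sets which genes could be tested. Of the tested genes, 4156 had a mean FPKM of at least 5. Shares of all tested genes and ranks are therefore over mostly well-expressed genes. FPKM is the read count of a gene divided by its length and by a library total.

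The cells were MDA-MB-231, an established human breast cancer line without estrogen and progesterone receptors, treated with vehicle (DMSO), rimonabant (an antagonist of the cannabinoid receptor CB1) or TXX-1-10 (a compound derived from rimonabant), with 3 libraries per treatment. The labels name no genetic change, and treatment is the only difference they give between the groups. Dose and duration for the sequenced cells were not given in the sources used here, so whether the compounds were matched in dose is not known. The library totals behind the FPKM values were 17078370 to 17245379 reads for vehicle, 17477838 to 18813662 for rimonabant and 18394759 to 19277808 for TXX-1-10. VIM, a mesenchymal marker of the line, stood at 224 to 329 FPKM in the 9 libraries, while ESR1 and PGR, the genes of the estrogen and progesterone receptors, stood at 0.0459 FPKM or less and CDH1 (E-cadherin) at 0 in the libraries that list them. Among the other genes looked at as low in the line, ERBB2 stood at 9.18 to 9.52 FPKM with vehicle and EPCAM at 4.47 to 5.37 FPKM in the libraries that list it, so these were not absent. Of the 5 tested genes looked at as high in the line, 4 were lower under TXX-1-10 than vehicle, where 43.8% of all tested genes were. These were LGALS1 (log2 fold change -1.34), KRT8 (-0.92), KRT18 (-0.70) and CD44 (-0.52), and VIM did not pass (0.04). Under rimonabant 3 of the 5 were lower, where 25.2% of tested genes were, and CD44 was higher (0.25). The untested S100A4 stood at 1.52 to 7.43 FPKM. The summed level of this list was 874 to 886 FPKM with vehicle, 572 to 709 with rimonabant and 520 to 640 with TXX-1-10, and its part in the results was not tested. Of 8 markers of other cell types, 7 were listed in at least 1 library, and none exceeded 0.943 FPKM. Rimonabant replicate 1 and TXX-1-10 replicate 3 stood apart from the other replicates of their groups, in that their counts relative to those replicates declined as gene length grew (rho over genes -0.694 and -0.692, against 0.477 to 0.667 in the other libraries of these compounds), so results are also given without them. In bulk RNA, a change in the RNA of each cell and a change in the makeup of the culture cannot be told apart.

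Human mitochondrial DNA is transcribed as long polycistronic RNAs, one from each strand, which are cut at the tRNAs that lie between most genes. Because no tRNA separates MT-ATP8 from MT-ATP6, both coding sequences stay on a shared bicistronic mRNA, and MT-CO3 follows directly behind them. Most of the mature mRNAs receive short poly(A) tails. The mRNAs are translated by mitochondrial ribosomes, and the products join nuclear-encoded subunits in the inner membrane. Complex III passes electrons from ubiquinol to cytochrome c, complex IV passes them to oxygen, and complex V uses the resulting proton gradient to make ATP.

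All 6 genes lie on the strand that the reference prints, in a stretch that runs from MT-CO1 to MT-CYB. In GRCh38 they are annotated as MT-CO1 (ENSG00000198804, chrM:5904-7445), MT-CO2 (ENSG00000198712, chrM:7586-8269), MT-ATP8 (ENSG00000228253, chrM:8366-8572), MT-ATP6 (ENSG00000198899, chrM:8527-9207), MT-CO3 (ENSG00000198938, chrM:9207-9990) and MT-CYB (ENSG00000198727, chrM:14747-15887). Each is a single exon without introns. The sequences of the ATP8-ATP6-CO3 block are shown because the levels of its genes diverged most, and the letters that neighbouring genes share bear on how their reads can be assigned. Capitals mark the bases shared by both genes, 5′ to 3′, as annotated by GENCODE 29 on GRCh38.
MT-ATP8: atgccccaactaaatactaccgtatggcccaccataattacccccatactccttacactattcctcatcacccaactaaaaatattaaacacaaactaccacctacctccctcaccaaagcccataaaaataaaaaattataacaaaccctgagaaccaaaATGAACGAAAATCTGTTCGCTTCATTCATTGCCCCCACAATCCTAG
MT-ATP6 first 100 bases: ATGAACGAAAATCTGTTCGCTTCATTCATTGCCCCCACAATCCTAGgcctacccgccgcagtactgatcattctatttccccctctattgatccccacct
MT-ATP6 last 30 bases: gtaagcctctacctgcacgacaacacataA
MT-CO3 first 30 bases: Atgacccaccaatcacatgcctatcatata

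The 46 shared bases (chrM:8527-8572) make up 22.2% of MT-ATP8 and 6.75% of MT-ATP6, so 161 bases of MT-ATP8 belong to that gene alone. MT-ATP6 and MT-CO3 share 1 base, chrM:9207, and the block from the start of MT-ATP8 to the end of MT-CO3 spans 1625 bases. The overlap is read in different frames, and the shared stretch ends in the stop codon of MT-ATP8. How reads in the overlap were assigned, and any use of strand in counting, are not given in the sources used here.

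The 3′ ends of the coding sequences also differ, and are shown because tail addition completes some of the stop codons. Capitals mark the last codon, or the leftover base where the gene does not end in a whole codon.
MT-CO1: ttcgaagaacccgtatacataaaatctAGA
MT-CO2: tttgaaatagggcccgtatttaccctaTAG
MT-CO3: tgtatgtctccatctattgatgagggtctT
MT-CYB: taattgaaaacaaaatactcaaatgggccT
MT-ATP6: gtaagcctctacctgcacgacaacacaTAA

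MT-CO3 (784 bases) and MT-CYB (1141 bases) end in a T that becomes a stop codon only after polyadenylation. In contrast, MT-CO1 (1542 bases) and MT-CO2 (684 bases) carry a whole last codon. MT-ATP6 (681 bases) is annotated with a whole stop codon, but its last base is also the first base of MT-CO3. Whether its stop codon needs the tail in the mature mRNA was not examined here. Among the 5 mRNAs that were lower under TXX-1-10, both a whole last codon (MT-CO1, MT-CO2) and a leftover T (MT-CO3, MT-CYB) occurred.

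Under TXX-1-10, 5 of the 6 mRNAs fell to between 2.73-fold and 4.20-fold below vehicle, and the value recorded for MT-ATP8 rose 1.18-fold. Under rimonabant all 6 lay within 1.15-fold of vehicle. The libraries were made from RNA selected for poly(A) tails, so these levels are those of the mRNA captured by that step. Tail length was not measured, and its part in the differences was not tested. In edgeR's quasi-likelihood test, all 6 differed between TXX-1-10 and vehicle at an adjusted p under 0.05, a test that 74.4% of all tested genes passed, 43.8% lower and 30.5% higher. The 5 lower mRNAs also passed with at least a 2-fold change, which 7.6% of tested genes did in that direction. Ranked from the lowest log2 fold change of 4236 genes, MT-CO1 was at position 37, MT-CO2 at 41, MT-CO3 at 61, MT-CYB at 107, MT-ATP6 at 149 and MT-ATP8 at 3123. Without rimonabant replicate 1 and TXX-1-10 replicate 3, the counts were again 6 and 5. In that setting 3591 of all 4236 genes passed in either direction, against 3151 with all libraries. The labels do not say whether the libraries came from separate cultures, so the p-values measure the spread between these libraries, which may be technical.

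**Figure D1:**
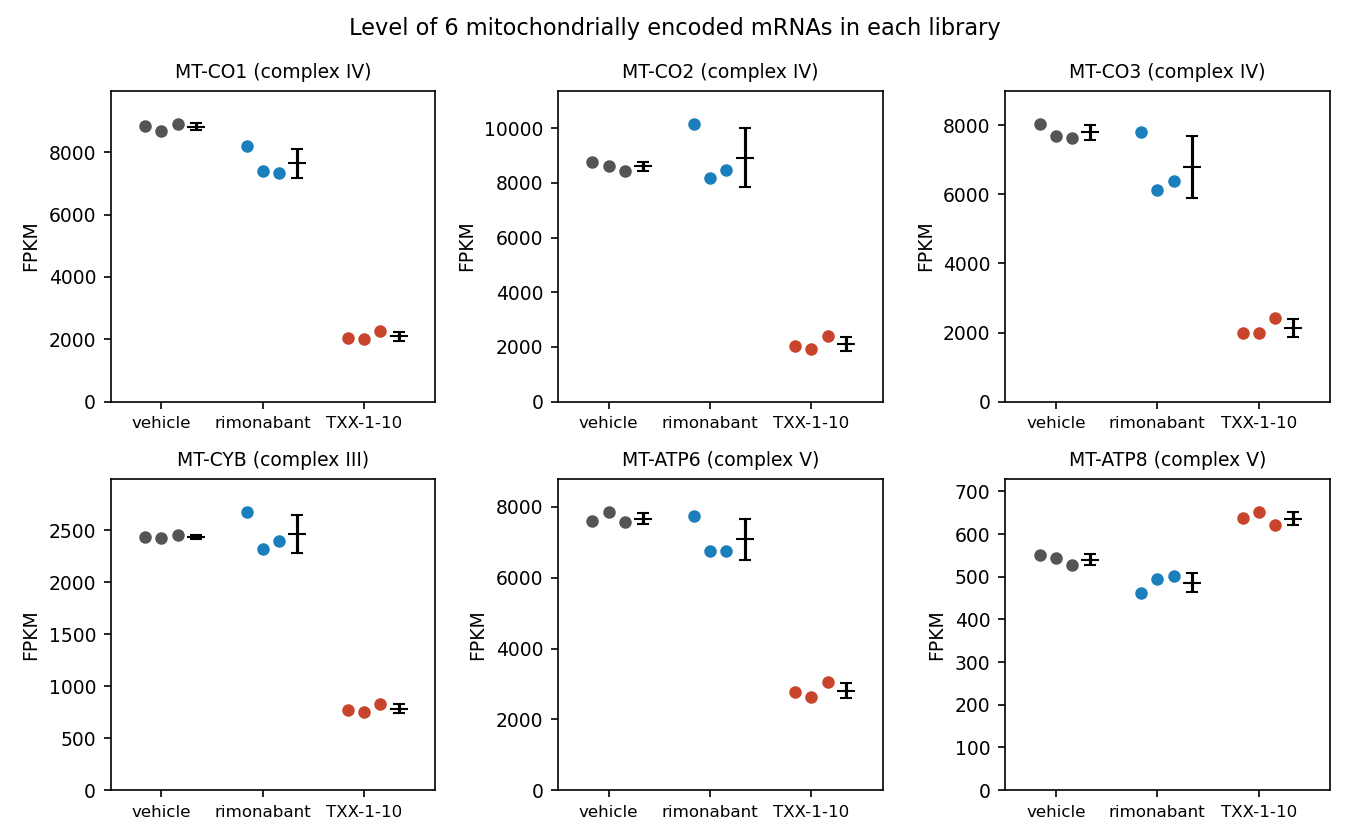
FPKM (vertical axes, from 0) of each mRNA in each of the 9 libraries; points are libraries 1 to 3 of a treatment in order, and the black dash and bar give the mean and SD of the 3. The TXX-1-10 libraries lie below all others in 5 panels, while for MT-ATP8 they lie above, at 621 to 651 FPKM.

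Among the complex IV mRNAs, MT-CO1, the subunit that holds the heme and copper site where oxygen is reduced, was at 8835, 8691 and 8908 FPKM in the vehicle libraries. It was at 8189, 7401 and 7345 FPKM under rimonabant and at 2030, 2002 and 2255 FPKM under TXX-1-10. The groups did not overlap, and the TXX-1-10 libraries stood far below the rest. The mean fell from 8811 ± 110 to 2096 ± 139 FPKM (SD, n = 3), a log2 fold change of -2.07 (standard error 0.08, 95% interval -2.25 to -1.90, edgeR adjusted p = 5.76e-09). Against rimonabant the log2 fold change was -1.87 (edgeR adjusted p = 2.93e-08).

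MT-CO2, which carries the copper centre that accepts electrons from cytochrome c, was at 8765, 8629 and 8441 FPKM in vehicle. Its values were 10163, 8174 and 8457 FPKM under rimonabant, a range that spans the vehicle values, and 2050, 1909 and 2386 FPKM under TXX-1-10. The log2 fold change under TXX-1-10 was -2.03 (standard error 0.11, edgeR adjusted p = 5.87e-08), which is 4.07-fold. MT-CO3, the core subunit without a redox centre, was at 8040, 7700 and 7635 FPKM in vehicle, at 7817, 6138 and 6400 FPKM under rimonabant and at 1988, 1987 and 2434 FPKM under TXX-1-10. Its log2 fold change under TXX-1-10 was -1.87 (standard error 0.11, edgeR adjusted p = 1.52e-07). In both genes TXX-1-10 replicate 3 was the highest of its group and rimonabant replicate 1 the highest of its own.

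MT-CYB, a heme-bearing subunit and the only mitochondrially encoded part of complex III, was at 2430, 2419 and 2457 FPKM in vehicle. It was at 2670, 2316 and 2397 FPKM under rimonabant, on both sides of vehicle, and at 769, 752 and 830 FPKM under TXX-1-10. The vehicle libraries varied by 0.794% of their mean, the least of any of the 6 mRNAs in any group. The log2 fold change under TXX-1-10 was -1.64 (standard error 0.07, edgeR adjusted p = 1.30e-08), or 3.11-fold.

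The values of the complex V genes, which share a transcript, moved in opposite directions under TXX-1-10. In vehicle, MT-ATP8 had only 2.11% to 2.20% of the counts of MT-ATP6, although both lie on the shared mRNA. The MT-ATP8 value therefore need not measure the level of that mRNA, and the reason for the gap was not tested. MT-ATP6, the subunit that forms the proton path beside the rotating ring, was at 7598, 7847 and 7571 FPKM in vehicle, at 7755, 6742 and 6749 FPKM under rimonabant and at 2759, 2631 and 3051 FPKM under TXX-1-10. Its log2 fold change under TXX-1-10 was -1.45 (standard error 0.08, edgeR adjusted p = 8.99e-08). MT-ATP8, a small subunit of the peripheral stalk, was at 550, 544 and 527 FPKM in vehicle and at 461, 494 and 503 FPKM under rimonabant. Under TXX-1-10 it was at 637, 651 and 621 FPKM, so the 3 groups did not overlap. Its reads numbered 1946, 1942 and 1877 with vehicle, 1667, 1923 and 1929 with rimonabant and 2541, 2477 and 2365 with TXX-1-10, so the rise also shows in the raw counts. The log2 fold change of MT-ATP8 was 0.24 under TXX-1-10 against vehicle (standard error 0.05, 95% interval 0.13 to 0.34, edgeR adjusted p = 0.00125) and 0.39 against rimonabant (edgeR adjusted p = 5.76e-05). Across the alternative settings the first of these lay between 0.22 and 0.50.

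**Figure D2:**
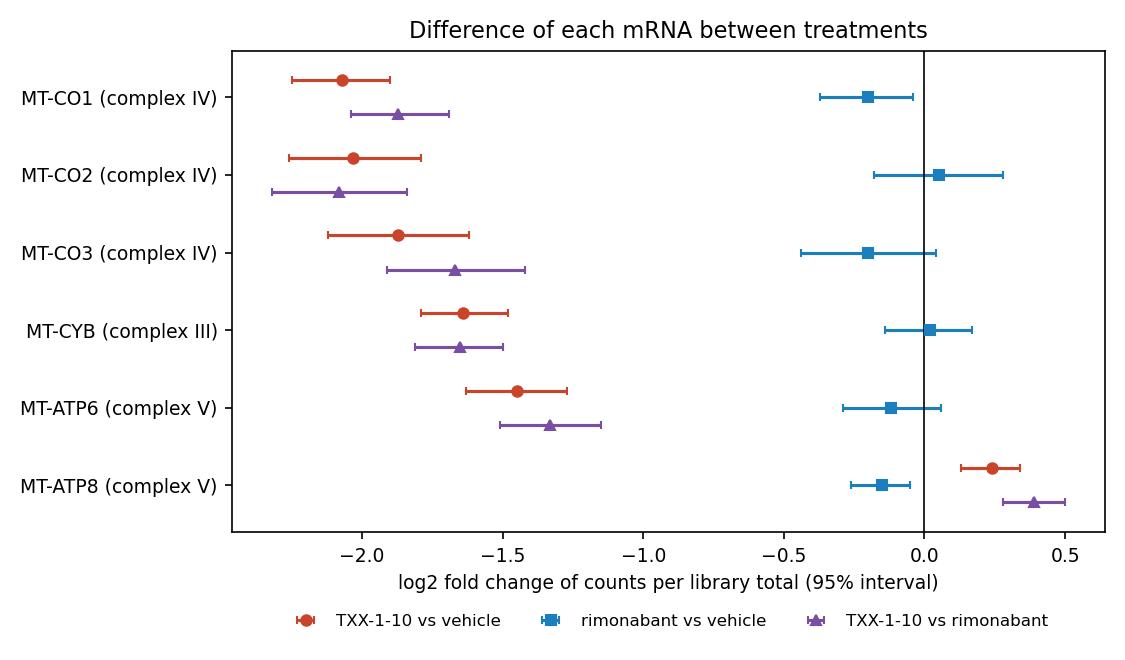
Log2 fold change (horizontal axis, with 95% intervals) of the 6 mRNAs in the 3 comparisons of treatments; the line at 0 marks no difference. For 5 mRNAs both comparisons of TXX-1-10 lie between -2.08 and -1.33, and for MT-ATP8 they lie at 0.24 and 0.39.

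For rimonabant against vehicle, 2 of the 6 mRNAs passed, both lower, where 48.9% of all tested genes passed and 25.2% were lower. MT-CO1 fell by 0.20 on the log2 scale (95% interval -0.37 to -0.04, edgeR adjusted p = 0.0449) and MT-ATP8 fell by 0.15 (95% interval -0.26 to -0.05, edgeR adjusted p = 0.0242). The other 4 did not pass, with log2 fold changes of 0.05 for MT-CO2 (95% interval -0.18 to 0.28), -0.20 for MT-CO3 (-0.44 to 0.04), 0.02 for MT-CYB (-0.14 to 0.17) and -0.12 for MT-ATP6 (-0.29 to 0.06). No member reached a 2-fold change, which 1.13% of tested genes did. The count of 2 depends on the libraries and the scaling. Without rimonabant replicate 1 and TXX-1-10 replicate 3 it was 4 (MT-CO1 at -0.26, MT-CO3 at -0.31, MT-ATP6 at -0.19 and MT-ATP8 at -0.12), while the share of all tested genes that passed rose to 68.6%, so 4 of 6 was near the background. The count was 1 with TMM scaling and 0 with a library size built from nuclear genes only, where 2119 and 2190 of all 4236 genes passed. With a correction for gene length MT-ATP8 no longer passed (-0.03, edgeR adjusted p = 0.877), and MT-CO2 (0.09, edgeR adjusted p = 0.0378) and MT-CO3 (-0.17, edgeR adjusted p = 0.00101) did beside MT-CO1.

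Between the compounds, all 6 mRNAs differed (64.5% of all tested genes passed, 39.4% lower and 25.1% higher), 5 lower under TXX-1-10 by 2.52-fold to 4.22-fold and MT-ATP8 higher by 1.31-fold. The 5 passed with at least a 2-fold change, which 4.34% of tested genes did in that direction. MT-CO2 differed most between the compounds (log2 fold change -2.08, edgeR adjusted p = 1.03e-07), followed by MT-CO1 (-1.87), MT-CO3 (-1.67), MT-CYB (-1.65) and MT-ATP6 (-1.33). The comparisons share libraries, so these values stand side by side and are not independent of each other.

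The 6 mRNAs together took 4.07% ± 0.0153 of the counts in genes on all 9 lists in vehicle (4.05% to 4.08%), 3.92% ± 0.252 under rimonabant (3.75% to 4.21%) and 1.26% ± 0.0757 under TXX-1-10 (1.21% to 1.35%, SD, n = 3). The 95% Wilson interval of a library's share was at most 0.021 percentage points wide, and covers counting error only. Within the 13 mitochondrially encoded mRNAs, the 6 accounted for 59.9% ± 0.643 of counts in vehicle libraries, 58.8% ± 0.954 in rimonabant libraries and 45.5% ± 0.723 in TXX-1-10 libraries, so the 7 mRNAs for complex I held the larger part under TXX-1-10.

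The order of levels per length also differed between treatments. In vehicle MT-CO1 and MT-CO2 came first with overlapping ranges, then MT-CO3 and MT-ATP6 with overlapping ranges (7791 ± 217 and 7672 ± 152 FPKM), then MT-CYB and MT-ATP8, each apart from its neighbours. Under rimonabant MT-CO2, MT-CO1, MT-ATP6 and MT-CO3 followed each other, and each overlapped the next. Under TXX-1-10 MT-ATP6 was highest at 2814 ± 215 FPKM, above and apart from MT-CO3, MT-CO2 and MT-CO1, whose means of 2136, 2115 and 2096 FPKM had overlapping ranges. MT-CYB at 784 ± 40.9 and MT-ATP8 at 636 ± 14.9 FPKM came last, and their levels lay closer than in vehicle (2435 ± 19.3 and 540 ± 12.4 FPKM).

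To compare the mRNAs with each other within a library, the counts were also fitted with the MT-CO1 count as the library size. This scale moves the whole table, and 99.2% of the other tested genes passed between TXX-1-10 and vehicle, nearly all of them higher, so a pass says only that a gene did not keep step with MT-CO1. MT-CO2 did not pass, with a log2 fold change relative to MT-CO1 of 0.04 (95% interval -0.08 to 0.16, edgeR adjusted p = 0.434). The other 4 passed and were higher relative to MT-CO1, in the order MT-CO3 at 0.20 (0.07 to 0.33), MT-CYB at 0.44 (0.37 to 0.51), MT-ATP6 at 0.62 (0.55 to 0.70) and MT-ATP8 at 2.31 (2.11 to 2.52). Arranged by complex, the decrease under TXX-1-10 was largest in the 3 mRNAs of complex IV, followed by MT-CYB and then MT-ATP6. MT-CYB was lower relative to MT-ATP6 (log2 fold change -0.19, 95% interval -0.27 to -0.11, edgeR adjusted p = 0.000557), while MT-CYB was not tested directly against MT-CO3. The MT-CYB to MT-CO1 ratio of FPKM values was 0.276 ± 0.00153 with vehicle, 0.322 ± 0.00751 with rimonabant and 0.374 ± 0.00557 with TXX-1-10, without overlap between groups. The MT-ATP6 to MT-CO1 ratio was 0.871 ± 0.0282, 0.926 ± 0.0189 and 1.34 ± 0.0265 in the same order.

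Under rimonabant 2 of the 5 passed on this scale, where 56.1% of genes did. MT-CO2 was at 0.25 relative to MT-CO1 (95% interval 0.14 to 0.37, edgeR adjusted p = 0.00286) and MT-CYB at 0.22 (0.15 to 0.29, edgeR adjusted p = 0.000339). MT-ATP6 stood at 0.09 (0.01 to 0.16, edgeR adjusted p = 0.0518), MT-CO3 at 0.00 (-0.13 to 0.13) and MT-ATP8 at 0.06 (-0.14 to 0.25). The MT-CO2 to MT-CO1 ratio of FPKM values was 0.978 ± 0.0257 with vehicle, 1.16 ± 0.0709 with rimonabant and 1.01 ± 0.0535 with TXX-1-10, so the rimonabant libraries (1.10 to 1.24) lay above both other groups. Between TXX-1-10 and rimonabant all 5 passed relative to MT-CO1, where 99.4% of genes did, and MT-CO2 was the only one that was lower, at -0.21.

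**Figure D3:**
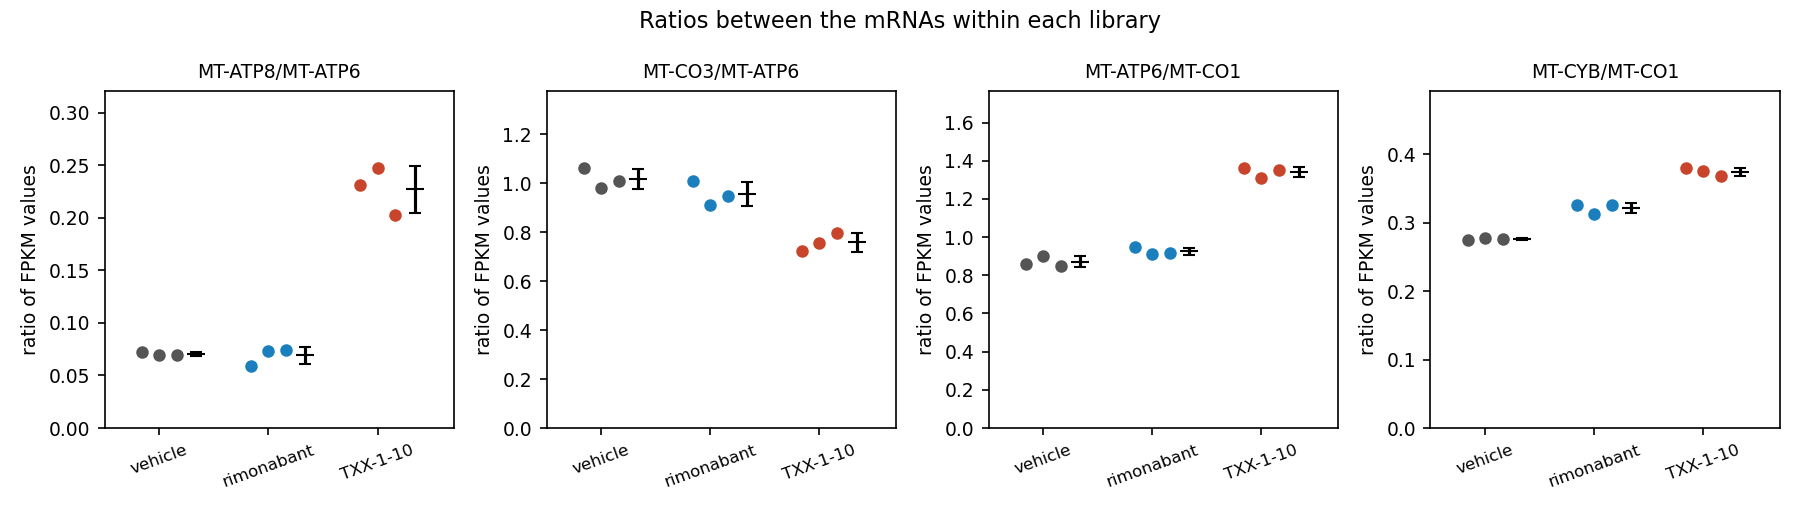
Ratio of FPKM values (vertical axes, from 0) between pairs of mRNAs in each library; points are libraries and the black dash and bar the mean and SD of 3. The MT-ATP8 to MT-ATP6 ratio is near 0.07 in vehicle and rimonabant libraries and 0.203 to 0.247 under TXX-1-10, while MT-CO3 to MT-ATP6 is lowest under TXX-1-10.

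On the shared ATP8-ATP6 transcript, the MT-ATP8 to MT-ATP6 ratio of FPKM values was 0.0725, 0.0693 and 0.0695 in vehicle. It was 0.0594, 0.0732 and 0.0745 with rimonabant and 0.231, 0.247 and 0.203 with TXX-1-10, above every other library. With the MT-ATP6 count as the library size, MT-ATP8 differed by a log2 fold change of 1.69 between TXX-1-10 and vehicle (standard error 0.10, edgeR adjusted p = 8.05e-08), or 3.22-fold, where 97.5% of genes passed on this scale. Between rimonabant and vehicle it was -0.03 (95% interval -0.25 to 0.19, edgeR adjusted p = 0.836; 44.8% of genes passed), and between TXX-1-10 and rimonabant 1.72 (edgeR adjusted p = 8.19e-08; 98.1% passed). Without rimonabant replicate 1 and TXX-1-10 replicate 3 the first value was 1.76. MT-CO3, which begins on the last base of MT-ATP6, was lower relative to MT-ATP6 under TXX-1-10 than in vehicle (log2 fold change -0.42, 95% interval -0.54 to -0.31, edgeR adjusted p = 2.11e-05). The order of the 3 neighbours from 5′ to 3′ was therefore 0.24, -1.45 and -1.87 in log2 fold change from vehicle.

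MT-ATP8 counts were 2.11% to 2.20% of MT-ATP6 counts in vehicle, 1.81% to 2.27% under rimonabant and 6.18% to 7.51% under TXX-1-10. At 207 bases it is the shortest of the 6 genes. Another overlapping pair of mitochondrial genes is MT-ND4L and MT-ND4, which encode complex I subunits on a shared mRNA and have 7 bases in common (chrM:10760-10766). The ratios of this pair overlapped between the 3 treatments. MT-ND4L was at 1.32 ± 0.115 times MT-ND4 in FPKM with vehicle (1.21 to 1.44), 1.15 ± 0.251 with rimonabant (0.876 to 1.37) and 1.18 ± 0.146 with TXX-1-10 (1.01 to 1.28).

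**Figure D4:**
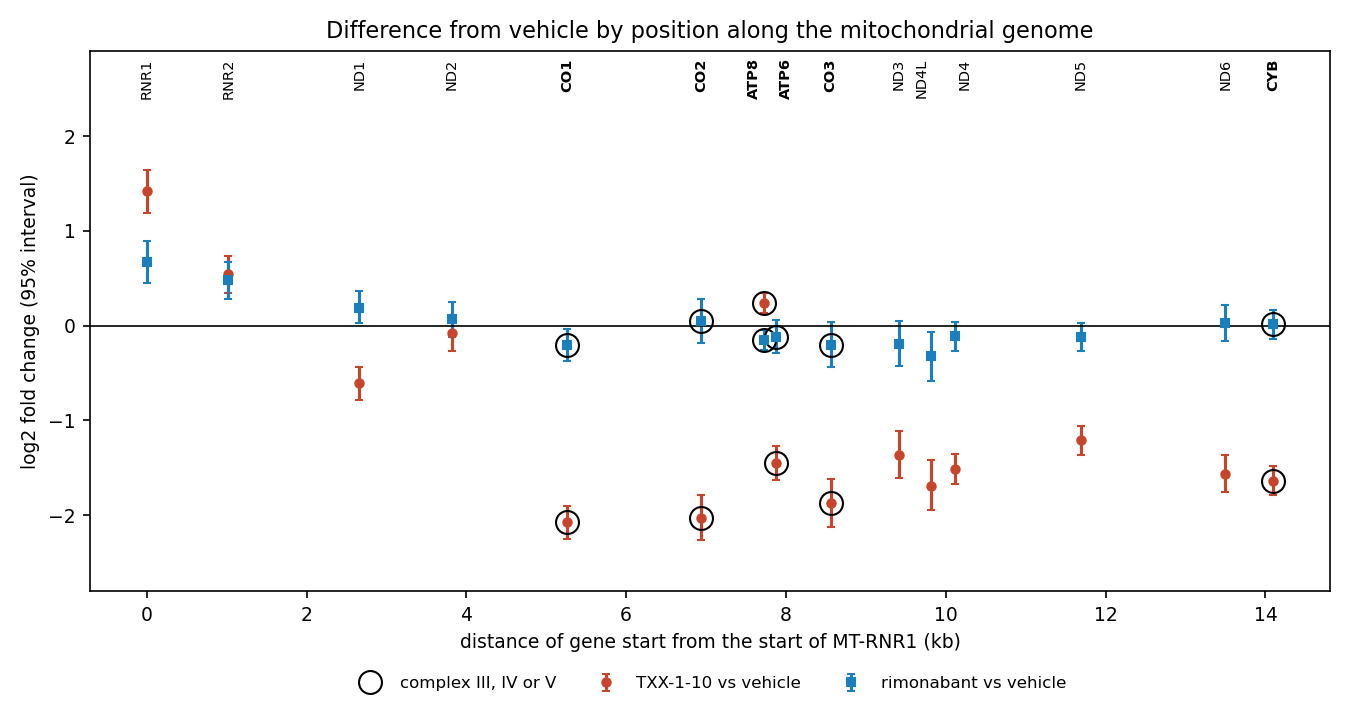
Log2 fold change from vehicle (vertical axis, with 95% intervals) of 15 mitochondrially encoded genes against the distance of the gene start from the start of MT-RNR1 in kb (horizontal axis); black rings mark the 6 mRNAs of complexes III, IV and V. Under TXX-1-10 the first genes lie at 1.42 and 0.54, those from MT-CO1 onward lie between -2.07 and -1.21, and MT-ATP8 stands apart at 0.24.

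Along the mitochondrial genome, the 6 mRNAs start 5.26 (MT-CO1), 6.94 (MT-CO2), 7.72 (MT-ATP8), 7.88 (MT-ATP6), 8.56 (MT-CO3) and 14.1 kb (MT-CYB) from the start of MT-RNR1. Their log2 fold changes under TXX-1-10 did not follow distance, since the lowest value was that of the nearest gene, MT-CO1, and MT-CYB, the farthest, lay between MT-CO3 and MT-ATP6. The genes nearer to MT-RNR1 differed in direction or size. The rRNA genes MT-RNR1 and MT-RNR2 rose by 1.42 and 0.54 (edgeR adjusted p = 5.90e-07 and 0.000266), MT-ND1 fell by 0.61 (edgeR adjusted p = 3.66e-05), and MT-ND2 did not pass at -0.08 (95% interval -0.27 to 0.11). Among the mRNAs from MT-CO1 onward, MT-ATP8 was the only one that was not lower under TXX-1-10. The value for MT-ND6, the mRNA read from the opposite strand, lay within the range of its neighbours at -1.57. Any use of strand in counting is not given, so this value need not measure that mRNA alone. Under rimonabant MT-RNR1 and MT-RNR2 rose by 0.67 and 0.48 (edgeR adjusted p = 0.000457 and 0.00140). The rRNA genes took 0.894% ± 0.046, 1.33% ± 0.0666 and 1.60% ± 0.107 of counts in vehicle, rimonabant and TXX-1-10 libraries. Polyadenylated RNA had been selected, so these values cover only the rRNA captured by that step, and total rRNA was not measured.

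Of the 7 complex I mRNAs, 6 were lower under TXX-1-10, as were 43.8% of all tested genes, and MT-ND2 did not pass, with a median log2 fold change of -1.36 beside -1.75 for the 6 mRNAs of complexes III to V and -0.09 for all tested genes. MT-ND4L fell by 1.69 (edgeR adjusted p = 5.13e-07) and MT-ND6 by 1.57 (edgeR adjusted p = 1.08e-07). Under rimonabant 1 of 7 was lower, where 25.2% of tested genes were, MT-ND4L at -0.32 (edgeR adjusted p = 0.0406).

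Segments of mitochondrial DNA also lie in the nuclear genome. A stretch of chromosome 1 holds MTCO1P12 (chr1:631074-632616), MTCO2P12 (chr1:632757-633438), MTATP8P1 (chr1:633535-633741), MTATP6P1 (chr1:633696-634376) and MTCO3P12 (chr1:634376-634922), annotated pseudogenes that match their mitochondrial genes at 98.70%, 98.24%, 97.58%, 98.53% and 98.17% of aligned bases. The longest stretch without a difference was 245 bases in MTCO1P12 and 141 bases in MTATP6P1, so reads from gene and copy are hard to separate and these values are uncertain. MTATP6P1 was the only copy listed for all 9 libraries, with 3332 to 3956 reads in vehicle and rimonabant libraries and 1302 to 1610 under TXX-1-10. Its counts were 3.70% to 4.29% of those of MT-ATP6 in every library. Its log2 fold change under TXX-1-10 was -1.34 (edgeR adjusted p = 5.80e-07) beside -1.45 for MT-ATP6, and relative to MT-ATP6 it was 0.10 (95% interval -0.01 to 0.22, edgeR adjusted p = 0.0780). MTCO1P12, listed for 8 libraries, had 0.541% to 0.709% of the reads of MT-CO1. MTATP8P1 had 1 read in each of the 2 libraries that list it, MTCO2P12 likewise, and MTCO3P12 at most 2 reads in 4 libraries.

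The nuclear-encoded partners of these mRNAs were lower under TXX-1-10 as well, by less. Of 9 nuclear complex III subunits 7 were tested, and 6 were lower and none higher under TXX-1-10 (median log2 fold change -0.30). CYC1, cytochrome c1, went from 143 ± 5.01 FPKM in vehicle to 94.6 ± 8.09 with TXX-1-10 (a log2 fold change of -0.60, edgeR adjusted p = 2.57e-05), and UQCRQ from 120 ± 4.15 to 82.1 ± 11 FPKM (-0.55, edgeR adjusted p = 0.00150). Of 11 complex IV subunits 9 were tested, and 7 were lower and none higher (median -0.31). COX8A fell by 0.87 (edgeR adjusted p = 9.17e-05) and COX6C by 0.51 (edgeR adjusted p = 0.00194).

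Of 18 complex V subunits 14 were tested, and 13 were lower and none higher (median -0.54). ATP5MC1 and ATP5MC3, genes for the rotating c-ring, fell by 1.20 (edgeR adjusted p = 1.46e-06) and 0.87 (edgeR adjusted p = 4.28e-05), and ATP5F1B, the catalytic beta subunit, by 0.79 (edgeR adjusted p = 5.06e-06). ATP5MC1 was the only tested nuclear subunit of the 3 complexes past a 2-fold change. For comparison, 43.8% of all tested genes were lower and their median was -0.09. The order of the medians by complex thus differed from that of the mitochondrial mRNAs, where the complex IV genes were lowest.

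Under rimonabant 2 of 7 tested nuclear subunits of complex III, 1 of 9 of complex IV and 3 of 14 of complex V were lower and none was higher, where 25.2% of all genes were lower. ATP5MC1 fell by 0.41 (edgeR adjusted p = 0.00563), COX8A by 0.38 (edgeR adjusted p = 0.0239), ATP5F1B by 0.37 (edgeR adjusted p = 0.00273), CYC1 by 0.31 (edgeR adjusted p = 0.00523) and UQCRC2 by 0.16 (edgeR adjusted p = 0.0199). In the wider fit on 9369 genes listed for 8 libraries, all 18 complex V subunits were tested and all 18 were lower under TXX-1-10, where 40.6% of the genes of that fit were lower and 34.7% higher.

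Factors that make, stabilise or decay mitochondrial RNA were a further list of 19 genes, of which 8 were tested. Under TXX-1-10, 7 were lower and none higher (median -0.52), where 43.8% of all tested genes were lower. PNPT1, the mitochondrial polynucleotide phosphorylase that degrades RNA, went from 17.5 ± 0.416 to 9.36 ± 0.0682 FPKM (log2 fold change -0.90, edgeR adjusted p = 3.51e-08). LRPPRC and SLIRP, which bind each other and protect mitochondrial mRNAs, fell by 0.56 (edgeR adjusted p = 5.27e-06) and 0.85 (edgeR adjusted p = 7.37e-05). Under rimonabant 4 of 8 were lower, where 25.2% of tested genes were, with PNPT1 at -0.38 and LRPPRC at -0.33, and SLIRP did not pass at -0.27 (edgeR adjusted p = 0.0759). In the wider fit, where all 19 were tested, 11 were lower and 1 higher under TXX-1-10 (median -0.27), where 40.6% of genes were lower and 34.7% higher. Of 30 assembly factors of complexes III to V only 5 were tested on 9 libraries, of which 4 were lower under TXX-1-10, among them COA1 (-0.72, edgeR adjusted p = 1.05e-06) and COA4 (-0.52, edgeR adjusted p = 0.000220). With 23 of the 30 tested in the wider fit, 13 were lower and 4 higher, beside the same 40.6% and 34.7%.

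As a description of shared pattern, each mRNA was compared with all other tested genes by Pearson's r of log2 counts, scaled to the library total, over the 9 libraries. The libraries fall into 3 treatments with TXX-1-10 far from the rest, so r mainly ranks genes by how they differ between treatments. The nearest gene to MT-CO1 was TUBB, a beta-tubulin (0.9999), followed by MT-ND4 and MCM3, a subunit of the replicative helicase. For MT-CO2 the nearest were H2AFV, UBE2T and SFXN1 (0.9993 to 0.9988), for MT-CO3 PGK1, MZT1 and WDR34 (0.9990 to 0.9986), for MT-CYB SFXN1, UBE2T and CYR61 (0.9994 to 0.9986), and for MT-ATP6 MT-ND4, MAD2L1 and TUBB (0.9992 to 0.9985). MT-ATP8 was nearest to SLC38A2, an amino acid transporter (0.9938). Of the 20 nearest genes outside the members, none was mitochondrially encoded for MT-ATP8 and 1 was for each of the other 5. Among the members themselves, r was 0.992 to 0.999 between any pair of those 5. Between MT-ATP8 and each of them it was -0.916 to -0.867.

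Within the compound groups, the libraries with a trend on gene length took the extremes. Rimonabant replicate 1 was the highest of its group for 5 of the 6 mRNAs and the lowest for MT-ATP8, and TXX-1-10 replicate 3 likewise. The spread among the 3 libraries, as SD over mean, was 0.794% to 2.79% in vehicle, 4.57% to 13.3% under rimonabant and 2.34% to 12.1% under TXX-1-10. Without both libraries the log2 fold changes under TXX-1-10 were -2.13 for MT-CO1, -2.12 for MT-CO2, -1.97 for MT-CO3, -1.68 for MT-CYB, -1.51 for MT-ATP6 and 0.25 for MT-ATP8.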

How the data were processed

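Polyadenylated RNA of MDA-MB-231 cells was selected with oligo(dT) beads and sequenced in 9 libraries, 3 each for vehicle, rimonabant and TXX-1-10, grouped by the treatment in the sample labels. The submitters' processing notes name HISAT2 2.0.5 and featureCounts 1.5.0-p3. The authors deposited whole-number read counts per gene without normalization and, beside them, FPKM values made from those counts. The total each library's FPKM values rest on was recovered from count, length and FPKM. Each of the 9 lists stops in mid-line, and genes past that point are not analysed here.

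Counts were tested with edgeR 4.0.16 (glmQLFit, glmQLFTest, R 4.3.3) on all 9 libraries in 1 fit, with the recovered totals as library sizes and Benjamini-Hochberg adjustment over 4236 genes. The common biological coefficient of variation was 0.0696. A gene passed at an adjusted p under 0.05. Standard errors are the log2 fold change over the square root of F and are approximate, and 95% intervals rest on them. Ratios between members used the count of MT-CO1 or MT-ATP6 as the library size (4235 genes). Alternatives were TMM, a library size from nuclear genes only, DESeq2 1.42.0, limma 3.58.1 on log2(FPKM + 1) and log2(FPKM + 0.1), other filters, a correction for gene length, a replicate block and left-out libraries. On simulated counts of 4236 genes for TXX-1-10 against vehicle, the fit recovered 200 of 200 genes changed 2-fold with 13 false calls. DESeq2 made 55 false calls on the same counts. The simulation changed far fewer genes than passed here and held no trend on gene length. It therefore does not give the rate of false calls in these data. Sequences come from GENCODE 29 transcripts (GRCh38), whose coordinates and lengths equal those in the lists for the 6 members.

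The members and gene lists were chosen with earlier results of these data known. Genes named beside the members are the 2 largest changes that passed for each list and comparison, and nuclear copies of members. Added to these, for each member, are the 3 genes outside the members with the highest correlation. For MT-ATP8 the nearest gene alone is reported here. MTCO1P12 and the other copies that are not on all 9 lists, the other mitochondrial genes in the account of position, and the line markers VIM, ESR1, PGR, CDH1, EPCAM and S100A4 were named outside this rule.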

Additional observations from a re-analysis of the deposited data

How the results depend on the processing

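For TXX-1-10 against vehicle and against rimonabant, 6 members passed and 5 with at least a 2-fold change under every alternative run, and MT-ATP8 against vehicle lay between 0.22 and 0.50 in log2 fold change. For rimonabant against vehicle the 2 calls became 1 with TMM, and 0 with a nuclear library size, with limma at either pseudocount and with the replicate block. They became 3 with the gene length correction (MT-CO1 and MT-CO3 lower, MT-CO2 higher, with MT-ATP8 lost) and 4 without rimonabant replicate 1 and TXX-1-10 replicate 3 together. With each library left out the count was 0 to 2 (0 without vehicle replicate 1 or 2, and 1 without vehicle replicate 3, rimonabant replicate 2 or 3, or TXX-1-10 replicate 1 or 2). Of all genes tested (4236 in the main fit), 2071 passed in the main fit, 2119 with TMM, 2190 with a nuclear library size and 2073 and 2070 with limma. The number was 1894 with the replicate block, 2530 with the length correction, 2907 without both libraries and 1651 to 2380 with each library left out. On the 8-library list the count stayed at 2, but MT-ATP8 was lost (edgeR adjusted p = 0.0911) and MT-CO3 gained (edgeR adjusted p = 0.0136). MT-CO2 and MT-CYB under rimonabant turned to -0.05 on the 8-library list, without rimonabant replicate 1 and without both libraries (with each library left out, -0.05 to 0.11 and -0.05 to 0.06), and MT-ATP8 relative to MT-ATP6 turned to 0.07 without rimonabant replicate 1 and without both. None of these turned values passed, and the cause was not tested. The deviations of same-numbered libraries gave no pairing that held for all 3 numbers in any comparison (correlations across genes -0.0625, 0.0137 and -0.0741 between TXX-1-10 and vehicle, -0.0537, 0.0435 and 0.0427 between rimonabant and vehicle, -0.789, 0.828 and -0.614 between the compounds, where replicate 2 deviated together and replicates 1 and 3 in opposite directions), so the numbers were not taken to pair the libraries. With the replicate block, 6, 0 and 6 members passed for TXX-1-10 against vehicle, rimonabant against vehicle and TXX-1-10 against rimonabant. Of all 4236 tested genes, 3078, 1894 and 2621 passed in that setting. MT-ATP8 relative to MT-ATP6 was then 1.69, -0.03 and 1.72, and 4, 2 and 5 members passed relative to MT-CO1. Without the block, 99.2%, 56.1% and 99.4% of genes passed relative to MT-CO1.

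Genes passing in the 8-library fit numbered 7051, 4360 and 5673 in the same order, against 3151, 2071 and 2732, since it tests 9369 genes. The median log2 fold change of all genes under TXX-1-10 moved from -0.09 to 0.03 with a nuclear library size. Calls for TXX-1-10 split into 1294 higher and 1857 lower, and into 1568 and 1570 with TMM; for rimonabant 1002 and 1069 became 1436 and 754 with a nuclear library size; between the compounds 1065 and 1667 became 1381 and 1349 with TMM.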
